A study of Microcebus murinus with 8 samples.

Results

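MiR-486 and miR-15a are microRNAs that are abundant in red blood cells, and they were the 2 of 108 microRNAs described here, taken by name (mmr-miR-486 and mmr-miR-15a) from the tables of 8 plasma samples. The donors were grey mouse lemurs, small primates of the species Microcebus murinus, all labelled wild type. Dairy fat was the fat source of the diet in samples 1 to 4, and vegetable fat in samples 5 to 8. The title of the study asks whether the source of dietary fat is reflected in plasma microRNAs. The labels used here give no age and no time on the diet, and do not say whether each sample was a separate animal. The p-values therefore reflect only how far these libraries differ, which may be technical. No sample from a standard diet was analysed, so each diet difference is of one fat source against the other.

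A microRNA is a short RNA that guides a silencing complex to matching messenger RNAs. Red cells carry a few microRNAs at very high levels, and breakage of red cells while blood is drawn or spun (haemolysis) releases them into plasma, so red-cell microRNAs are watched as a quality measure in plasma studies. MiR-486 lies within the ankyrin gene ANK1 in human and mouse, where it is made in erythroid and muscle cells, and it acts on FOXO1. MiR-15a is made from a transcript it shares with miR-16, acts on the survival gene BCL2, and has been linked to fetal haemoglobin through MYB in human erythroid cells. The pair thus comes from separate genes, and a shared release from red cells is one way in which both could vary together in plasma. A change in the number of source cells, in the RNA each held and in how much was released cannot be told apart in plasma.

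Values are RPM, reads per 1000000, with the 108 listed microRNAs as the whole, so each value is a share of that pool and shares can grow only at the expense of others. Every value was a whole multiple of one step in its sample. Taking that step as the worth of 1 read gave implied totals from 1061434 to 4004131 reads over the 108 microRNAs. The files do not state the step or say whether it is a read or a molecular identifier, and every read total and interval given here rests on it. Within the dairy fat group sample 1 stood apart, with 1408536 reads against 3103305 to 3437717 in the others. The lowest total was that of vegetable fat sample 8 (1061434), and vegetable fat sample 6 had 1855670. Listed red-cell microRNAs besides the pair were miR-92a, miR-107 and miR-182, which makes 5 of the 15 names in a red-cell list. That list enters miR-451a also as miR-451. MiR-451a and miR-144, which mark red cells more strictly, were not analysed here, and neither was miR-16. Of the other blood cell lists, 7 of 9 platelet and 2 of 5 leukocyte microRNAs were listed, and none was at 0. Names were matched exactly, so a listed miR-199 did not enter the platelet counts and sums as miR-199a. Whether the samples were graded for haemolysis is not given in the sources used here.

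MiR-486 was the sixth most abundant microRNA of the 108 on average. In the dairy fat group it stood at 87548, 53568, 81168 and 79553 RPM in samples 1 to 4. In the vegetable fat group it stood at 105104, 103365, 54811 and 97515 RPM in samples 5 to 8. Samples 2 and 7, one from each diet, were low, and the other 6 lay at 79553 RPM or above. As shares of the pool, the lowest was 5.36% (sample 2, 95% exact binomial interval 5.33 to 5.38%) and the highest 10.5% (sample 5, 10.48 to 10.54%). These intervals cover counting error only, and the spread between samples was far wider. The highest level was 1.96 times the lowest.

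MiR-15a was far scarcer, thirtieth in the order of mean levels. Its levels were 801, 1585, 3218 and 1509 RPM in dairy fat samples 1 to 4. In vegetable fat samples 5 to 8 they were 1964, 1111, 3894 and 1475 RPM. Samples 7 and 3, again one from each diet, were the high ones, and sample 1 was the lowest. Its share ran from 0.0801% in sample 1 (95% exact binomial interval 0.0755 to 0.0849%, 1128 implied reads) to 0.389% in sample 7 (0.383 to 0.396%, 15591 implied reads). That is a 4.86-fold range. The standard deviation (SD) of log2(RPM) over the 8 samples was 0.75 for miR-15a and 0.38 for miR-486. Among 101 microRNAs with distinct values that passed a filter on low levels, ordered by that spread on the log2(RPM + 1) scale, miR-486 was 35th from the steadiest and miR-15a 72nd.

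**Figure D1:**
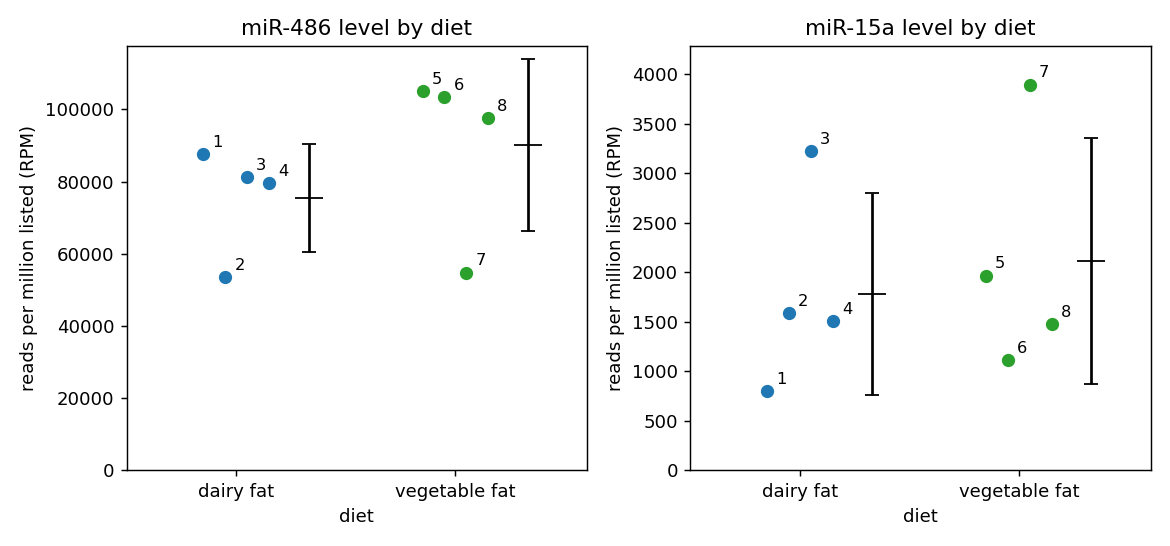
Level of miR-486 (left) and miR-15a (right) in RPM (share of all listed microRNA reads), 1 point per sample with its sample number, by diet; the bar beside each group is the mean ± SD (n = 4). Samples 2 and 7 are low for miR-486, samples 3 and 7 are high for miR-15a, and the diets overlap in both panels.

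In the order of mean level, the neighbours of miR-486 were let-7g and let-7f above it and miR-30e and miR-26b below. Let-7g and let-7f belong to the let-7 family of differentiation-linked microRNAs. Their means over the 8 samples were 103266 ± 23672 and 97680 ± 27145 RPM (SD), against 82829 ± 20038 for miR-486. Let-7f exceeded miR-486 in 5 of 8 samples and let-7g in 6 of 8, so the order within this trio was not settled beyond the spread. MiR-30e (27318 ± 7302 RPM) was below miR-486 in each of the 8. MiR-15a, at 1945 ± 1067 RPM, sat between miR-342 and miR-30c above and miR-532 and miR-660 below, whose means ran from 2325 down to 1835 RPM. Each of these 4 was higher than miR-15a in 4 or 5 of the 8 samples, so none was separated from it. Library preparation captures some sequences better than others, and that part of a level difference between microRNAs was not tested.

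As shares of the pool, the pair did not rise together over the 8 samples. Sample 7 had the highest miR-15a and the second lowest miR-486, sample 3 had the second highest miR-15a with the fifth highest miR-486, and sample 1 had the lowest miR-15a with the fourth highest miR-486. Sample 5 was high for both, with the highest miR-486 (105104 RPM) and a miR-15a of 1964 RPM, exceeded only in samples 7 and 3. Of the 28 possible pairs of samples, 10 were ordered the same way by both microRNAs and 18 the opposite way. Within the diets 4 of 12 were ordered the same way. The correlation on the log2(RPM + 1) scale was negative and did not pass the test (Pearson r = −0.46, exact permutation p = 0.251; Spearman rho = −0.38, exact permutation p = 0.360; n = 8, two-sided). Adjusted over the 13 relations examined, these p-values were 0.327 and 0.520. As deviations from the diet means r was −0.56, and neither diet alone has enough samples for a value of its own.

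A few samples carried that value. Without samples 2 and 7, the farthest from the median of miR-486, r was −0.23 (exact permutation p = 0.653, n = 6), and without sample 7 alone it was −0.14. With 1 sample left out r stayed below 0, between −0.64 and −0.14. The rho ran from −0.71 without sample 5 (exact permutation p = 0.0881) to −0.18 without sample 7 (exact permutation p = 0.713). The value also changed with the scale on which both were set. With each taken as a log2 ratio to the sum of the other microRNAs, r was −0.42. With each taken against the geometric mean of the other microRNAs it was 0.26 (exact permutation p = 0.535), a scale on which both values share one subtracted term. As deviations from a line on log2 read total, r shrank to −0.12 (exact permutation p = 0.772) and rho turned to 0.095. None of these values passed the threshold, which does not show that the levels are unrelated.

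**Figure D2:**
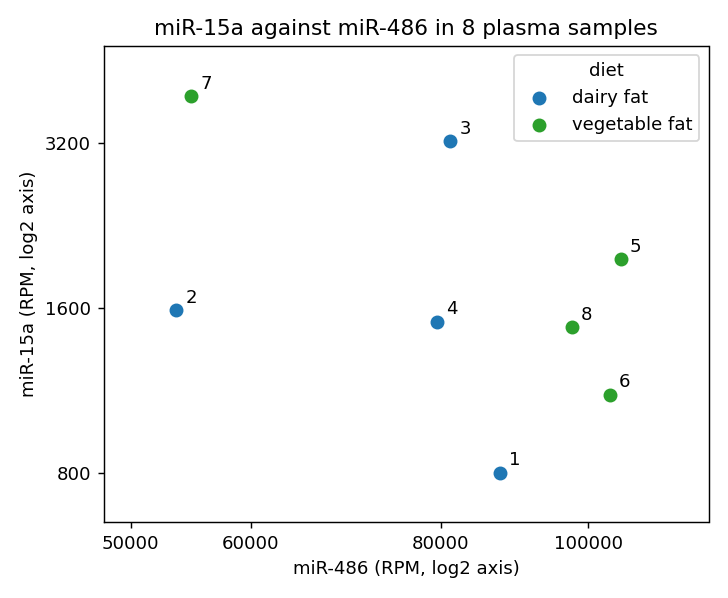
MiR-15a against miR-486 in RPM, both on log2 axes, 1 point per sample with its sample number, coloured by diet. The points fall with no upward trend: sample 7 combines 54811 RPM of miR-486 with the highest miR-15a, and sample 1 combines 87548 RPM with the lowest.

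The ratio of miR-486 to miR-15a varied more than either microRNA. It was 109, 33.8, 25.2 and 52.7 in dairy fat samples 1 to 4, and 53.5, 93.1, 14.1 and 66.1 in vegetable fat samples 5 to 8. The highest ratio, in sample 1, was 7.77 times the lowest, in sample 7, and these extremes came from different diets. A constant ratio would have meant a fixed mix of the pair. On the log2 scale the ratio had an SD of 0.99 over the 8 samples, where the spreads of 0.38 and 0.75 would add up to 0.84 if the pair varied independently. MiR-15a made up 0.906% of the sum of the pair in sample 1 and 6.63% in sample 7.

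Depth moved with miR-15a and with the ratio. MiR-15a was higher in libraries with more implied reads (Spearman rho = 0.90, exact permutation p = 0.00456, adjusted p = 0.0471; Pearson r = 0.72, exact permutation p = 0.0498, adjusted p = 0.130; n = 8). Its 2 highest levels came from the libraries with the most reads, samples 7 (4004131) and 3 (3437717). The rho ran from 0.86 to 0.96 with 1 sample left out and its p stayed at or below 0.0238. The Pearson p rose above 0.05 on leaving out any one sample except sample 8, up to 0.117 without sample 7. Without the shallowest sample 8 and sample 1, the farthest from the median read total, r was 0.81 (exact permutation p = 0.0139, n = 6), and as deviations from the diet means it was 0.77.

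The log2 ratio fell with the same totals (r = −0.75, exact permutation p = 0.0293; rho = −0.83, exact permutation p = 0.0154; n = 8), but adjusted over the 13 relations neither passed (0.119 and 0.0666). Its unadjusted Pearson p was above 0.05 without sample 1, 2, 3, 6 or 7, at 0.0883, 0.0538, 0.0524, 0.0554 and 0.0780. Within diets r was −0.77, and without samples 1 and 8 it was −0.83 (exact permutation p = 0.0361, n = 6). For miR-486 itself the relation to read total was not called (r = −0.54, exact permutation p = 0.157; rho = −0.33, exact permutation p = 0.428; n = 8), and without sample 7 its r was −0.40. Totals count the 108 listed microRNAs only. What part depth has in the differences of miR-15a between samples was not tested.

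**Figure D3:**
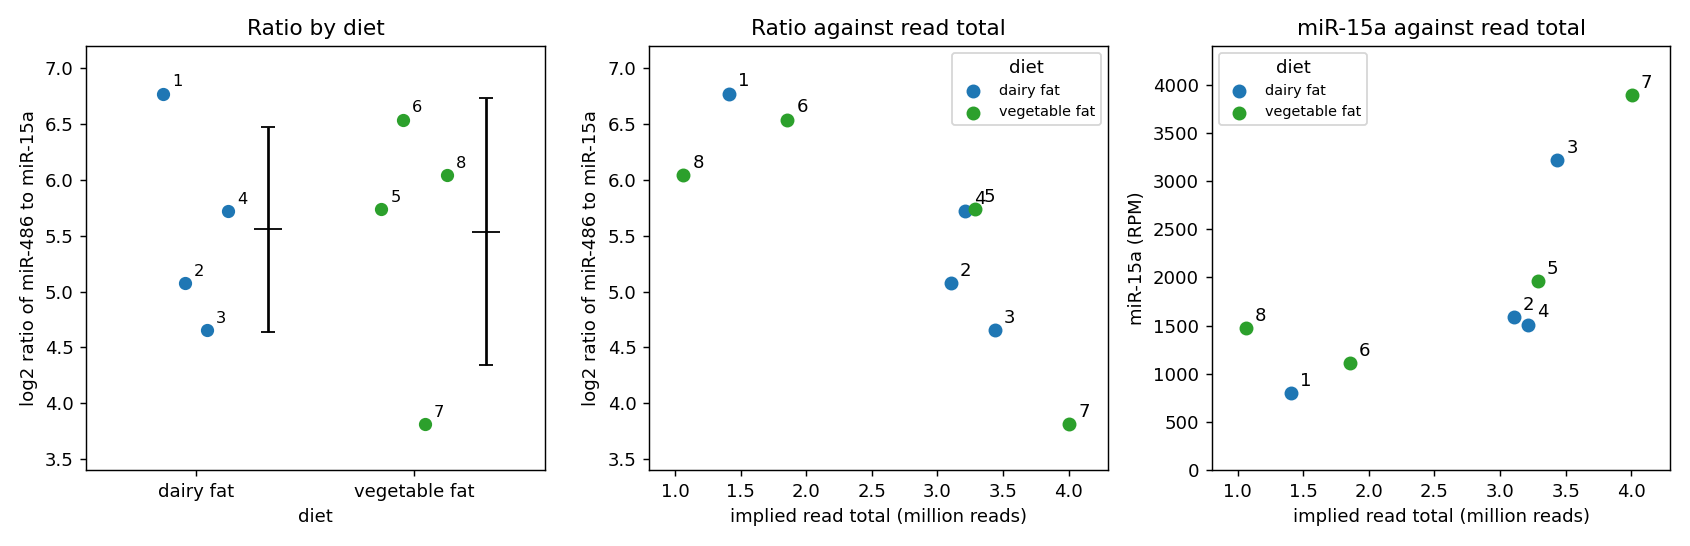
Log2 ratio, miR-486 over miR-15a, by diet (left; bars are mean ± SD, n = 4), the same ratio against the implied read total in units of 1000000 reads (middle), and miR-15a in RPM against that total (right), 1 point per sample with its sample number. The ratio is highest in sample 1 and lowest in sample 7, the deepest library, and miR-15a is highest in samples 7 and 3.

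The fat source was not separated by either microRNA. MiR-486 averaged 75459 ± 14997 RPM with dairy fat against 90199 ± 23814 RPM with vegetable fat (SD over 4 samples each). Samples 5, 6 and 8 on vegetable fat lay above every dairy fat sample, while sample 7 lay below 3 of the 4. In limma, fitted over the 104 microRNAs that reached 1 RPM in 4 samples or more, the vegetable fat estimate was 1.18 times the dairy fat one (95% confidence interval 0.807 to 1.72; log2 difference 0.23 ± 0.25 SE, adjusted p = 0.999). MiR-15a averaged 1778 ± 1023 and 2111 ± 1239 RPM, a fold of 1.19 (0.569 to 2.50; log2 difference 0.26 ± 0.48 SE, limma adjusted p = 0.999). Over all microRNAs the test called 0 of 104, or 0% at an adjusted p under 0.05, with 0 at an unadjusted p under 0.05. The groups failed to overlap for 0 of 108, again 0%, so the pair was like the background in this. The median estimate over all microRNAs was 0.07 on the log2 scale, and both members lay above it.

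Single samples set the size of these estimates. That of miR-486 was 0.46 without sample 7, 0.08 without sample 2, 0.15 without sample 5 and also 0.15 without sample 6. For miR-15a it was −0.07 without sample 1, −0.09 without sample 7, 0.60 without sample 3 and 0.51 without sample 6. With upper quartile factors, which moved the median of all microRNAs to −0.15, the estimates were 0.02 for miR-486 and 0.04 for miR-15a. With read total as a covariate they were 0.17 and 0.44. The interval for miR-486 holds folds from 0.807 to 1.72 and that for miR-15a folds from 0.569 to 2.50. Differences within these ranges were not excluded with 4 samples a group.

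**Figure D4:**
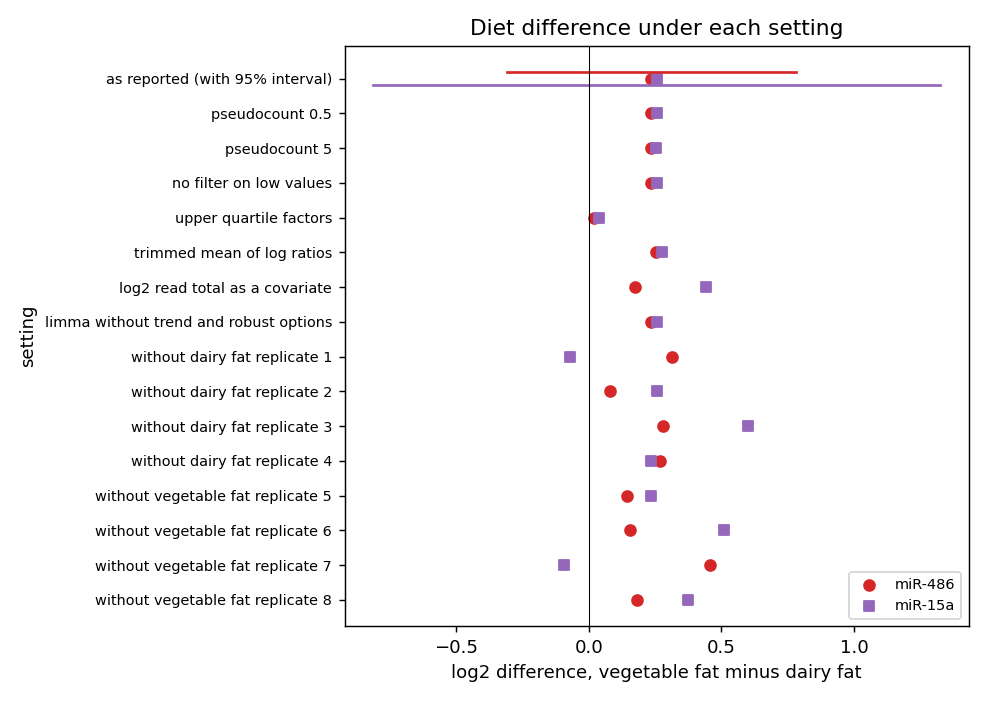
Log2 difference between the diets (vegetable fat minus dairy fat) for miR-486 (circles) and miR-15a (squares) as reported, with limma's 95% confidence intervals as lines in the top row, and under each other setting. MiR-486 stays above 0, from 0.02 to 0.46, and miR-15a falls below 0 without sample 1 or sample 7.

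Taken as a pair, they made up 7.72% ± 1.50 of the pool with dairy fat and 9.23% ± 2.27 with vegetable fat (SD over 4 samples; two-sided exact permutation p = 0.343). Sample 7 held 5.87% and the other vegetable fat samples 9.90 to 10.7%. Without sample 7 the difference grew from 1.51 to 2.63 percentage points, and its exact permutation p was 0.0286, the smallest that 3 against 4 samples can give. The sample left out there was the lowest of its diet. Without sample 2, the lowest on dairy fat, the difference was 0.77 percentage points (exact permutation p = 0.629). Their log2 ratio, miR-486 over miR-15a, averaged 5.56 ± 0.92 with dairy fat and 5.54 ± 1.19 with vegetable fat (SD over 4 samples; exact permutation p = 0.971). That difference of −0.02 was 0.38 without sample 1, 0.03 without sample 4 and 0.55 without sample 7, and −0.32, −0.36, −0.18, −0.19 and −0.09 without samples 3, 6, 2, 8 and 5.

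Among the other listed red-cell microRNAs, miR-92a and miR-182 had their higher correlation with miR-486, and miR-107 with miR-15a; these differences between correlations were not tested. MiR-92a, from the polycistron it shares with miR-17, and with values identical to those of miR-92b, had r = 0.74 with miR-486 (exact permutation p = 0.0366, adjusted p = 0.119; rho = 0.60, exact permutation p = 0.132; n = 8). That relation rested on samples 2 and 7, since r was 0.20 without them. With miR-15a its r was −0.0022 (exact permutation p = 0.996; rho = −0.10, exact permutation p = 0.840). MiR-182, of the miR-183 cluster, had r = 0.51 with miR-486 (exact permutation p = 0.189; rho = 0.67, exact permutation p = 0.0831). Without sample 4 that r was 0.83 (unadjusted exact permutation p = 0.0278, n = 7), and with any other sample left out it was 0.41 to 0.54. With miR-15a, miR-182 had r = 0.05 (exact permutation p = 0.913; rho = −0.02, exact permutation p = 0.977). In the order of rho with miR-486 over the 104 other microRNAs with distinct values, miR-182 stood 10th and miR-92a 19th.

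MiR-107, which lies in a pantothenate kinase gene and acts on insulin signalling, followed miR-15a (r = 0.92, exact permutation p = 0.00308, adjusted p = 0.0400, n = 8), while the rank correlation did not pass (rho = 0.69, exact permutation p = 0.0694, adjusted p = 0.180). Its levels were 4176 RPM in sample 3 and 3660 in sample 7, against 1111 in sample 1 and 1744 to 2321 in the others. Those 2 samples carried part of it: without them r was 0.78 (exact permutation p = 0.0833, n = 6). Such a value was not particular to the red-cell list. By rho with miR-15a, miR-107 stood 10th of the 104 other microRNAs with distinct values, and miR-128 and miR-301a had r = 0.93 and 0.92. With miR-486 miR-107 had r = −0.19 (exact permutation p = 0.655; rho = 0.10, exact permutation p = 0.840). Of the 5 listed red-cell members, the pair included, 0 passed the diet test in either direction, with a median log2 estimate of 0.26.

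Levels of the other blood cell lists overlapped between the diets. The 3 red-cell microRNAs besides the pair, miR-92a, miR-107 and miR-182, summed to 0.795 to 1.61% of the pool on dairy fat and 1.22 to 1.32% on vegetable fat. Platelet microRNAs summed to 16.7 to 21.7% and 15.4 to 21.6%, and leukocyte ones (miR-342 and miR-146a) to 0.261 to 0.650% and 0.114 to 0.403%. Of the 7 and 2 tested, 0 passed the diet test in either direction, with median log2 estimates of 0.05 and −0.27. Ranked over the 8 samples, the summed level of those 3 red-cell microRNAs had a rho of 0.52 with miR-486 and 0.43 with miR-15a. Taken singly, miR-107 had a rho of 0.69 with miR-15a, against −0.10 for miR-92a and −0.02 for miR-182. The summed platelet level had 0.50 and −0.31, and the summed leukocyte level 0.57 and −0.69. These are descriptions over the same 8 libraries, and the part of each list in the levels of the pair was not tested.

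MiR-15a belongs to the miR-15/16 family, whose members share a seed and so can act on overlapping targets, and it was the leading listed member. MiR-195, miR-497 and miR-424 were the others listed, at 123 ± 26.0, 71.5 ± 37.3 and 61.7 ± 46.1 RPM over the 8 samples. MiR-195 and miR-497 are made from one transcript, and miR-424 from another on the X chromosome of human and mouse. The family list named 6 members, of which miR-15b and miR-16 were not analysed here, so each share is of the 4 listed ones only. MiR-15a took 75.3% of the summed level of these 4 in sample 1, 76.1% in sample 6 and 79.1% in sample 8. In samples 3 and 7 it took 95.7% and 96.3%. By diet its share was 85.0% ± 8.37 with dairy fat and 85.8% ± 9.72 with vegetable fat (SD over 4 samples; exact permutation p = 0.914).

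The relatives were low where miR-15a was high, which was not particular to the family. Of the 104 other microRNAs with distinct values, 73 had a rho below 0 with miR-15a, and the median over the 104 was −0.58. In the order of likeness to miR-15a, miR-497 stood 52nd, miR-195 70th and miR-424 86th of 104. MiR-424 stood at 16.9 and 25.2 RPM in samples 3 and 7, the 2 highest for miR-15a, and at 150 RPM in sample 6. Its rho with miR-15a was −0.88 (exact permutation p = 0.00724, adjusted p = 0.0471) and r was −0.76 (exact permutation p = 0.0272, adjusted p = 0.119; n = 8). Without samples 3 and 7 r was −0.53 (exact permutation p = 0.271, n = 6). For miR-195 rho was −0.79 (exact permutation p = 0.0279, adjusted p = 0.0908) and r −0.68 (exact permutation p = 0.0687), or −0.21 without samples 3 and 7. For miR-497 rho was −0.57 (exact permutation p = 0.151) and r −0.65 (exact permutation p = 0.0861), or 0.07 without them. Of the 4 listed family members 0 passed the diet test in either direction, and their median log2 estimate was 0.16.

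Each member of the pair had its own nearest companions among the 104 other microRNAs with distinct values, by Spearman rho of RPM over the 8 samples. Those most like miR-486 were miR-320a (rho = 0.90), miR-484 (0.88) and miR-500 (0.81). MiR-320a, which has been described in human reticulocytes as acting on the transferrin receptor, was 3540 and 2921 RPM in samples 2 and 7 and 4534 to 6679 in the others, so it was low in the same samples as miR-486. Those most like miR-15a were miR-301a (0.95), miR-590 (0.93) and miR-128 (0.88). The companions of both were picked for the highest rho among the 104, so their values describe these 8 samples and carry no test. MiR-590 reached 1077 RPM in sample 7 against 141 in sample 1, and miR-128, best known from neurons, was 4584 and 4012 RPM in samples 3 and 7 against 2093 in sample 1. In the order of likeness to miR-486, miR-15a stood 97th of 104, and in that to miR-15a, miR-486 stood 43rd.

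The 2 orders ran largely against each other. Of 103 microRNAs compared with both, 64 had a rho above 0 with miR-486 and below 0 with miR-15a, and 17 the reverse. Another 10 were above 0 with both and 7 below 0 with both, and 5 had a rho of 0 with one of them. The median rho was 0.30 with miR-486 and −0.58 with miR-15a. All of these values come from the same 8 libraries and from shares of one total, so the microRNAs are not independent of each other.

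**Figure D5:**
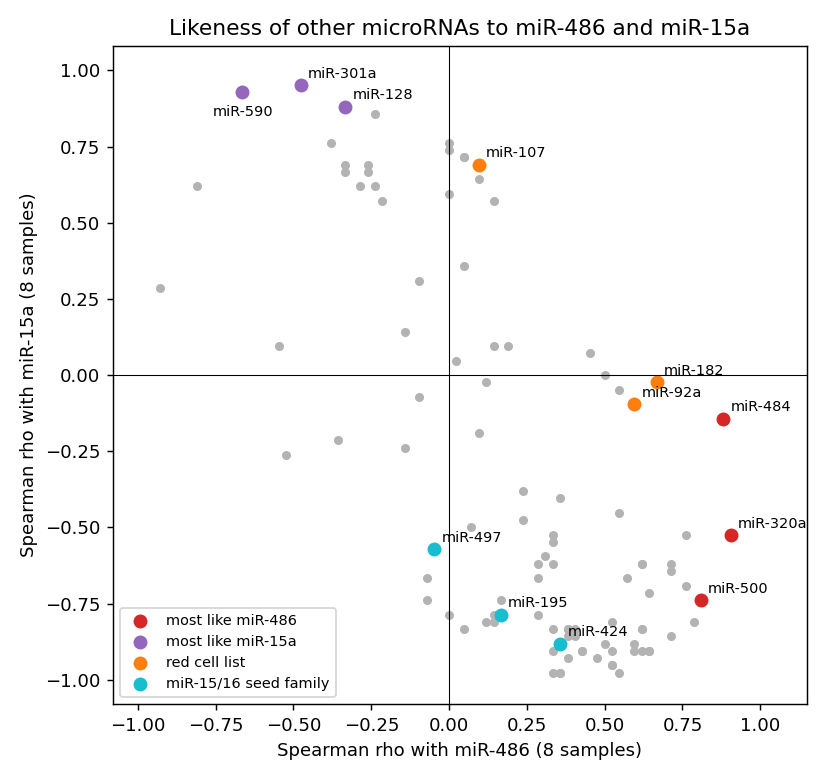
Spearman rho over the 8 samples of each of 103 other microRNAs with miR-486 (horizontal) and with miR-15a (vertical), 1 point per microRNA; coloured points are the microRNAs most like each member, the red-cell list and the miR-15/16 family. Most points lie in the lower right, where rho is above 0 with miR-486 and below 0 with miR-15a, and miR-107 lies high while miR-92a and miR-182 lie to the right.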

How the data were processed

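Small RNA from plasma was sequenced in 8 samples. Extraction was by miRNeasy Micro columns and library preparation by QIAseq miRNA chemistry, per the labels' protocols, and reads went through cutadapt 3.4, per the submitters' processing notes. How reads were aligned and counted, and whether molecular identifiers were used, is not stated by those sources. Deposited values are RPM, relative by the authors to the 108 listed microRNAs, since they summed to 1000000 in each sample. Names carry no arm (5p or 3p). Samples are numbered by title; headers inside the vegetable fat tables number them differently but name the same diet, and 0 columns belonged to other samples.

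Implied reads came from dividing each value by the step taken as 1 read (all quotients were whole to within 0.01). The diets were compared with limma 3.58.1 (R 4.3.3; trended, robust variance) on log2(RPM + 1). MicroRNAs entered if they reached 1 RPM in 4 samples or more, and p-values were adjusted by Benjamini-Hochberg over all tested, with a threshold of 0.05. The fit was checked on simulated data. Ratios and shares were compared by exact permutation over 70 assignments, whose smallest p is 0.0286, and correlations by exact permutation over 40320 pairings (Python 3.11.15, numpy 2.4.6). MicroRNAs with identical values counted once in likeness. Named are the pair, listed red-cell and miR-15/16 members, the 3 most like each by rho and the 2 on either side in level. The pair and the lists were chosen with earlier results of these data known, and list membership rests on general knowledge of human and mouse cells. Alternatives were other pseudocounts, filters, scalings and limma options, read total as a covariate, and each sample left out.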

Additional observations from a re-analysis of the deposited data

Results flagged for a closer look

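Of 52 groups of 4 samples examined, 8 held a value set apart from the other 3, where chance gives about 1 in 20, or 2.6. Vegetable fat sample 7 was far from the rest of its diet for miR-486 (54811 RPM against 97515 to 105104), for the summed share of miR-486 and miR-15a (5.87% against 9.90 to 10.7%), for miR-320a (2921 RPM against 6177 to 6679) and for miR-590 (1077 RPM against 143 to 239). The first of these largely sets the second. MiR-320a and miR-590 were named for their likeness to miR-486 and miR-15a, so their values here are not separate from those of the pair. The 52 groups are thus not independent, and 8 against 2.6 is not a test. Dairy fat sample 1 was far from its group in implied read total (1408536 against 3103305 to 3437717), in miR-500 (89.5 RPM against 46.7 to 47.7) and in miR-342 (4929 RPM against 1750 to 2210). Dairy fat sample 3 was far for miR-30e (34273 RPM against 21174 to 21384). Sample 7 was also the deepest library.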

How the results depend on the processing

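The count of microRNAs called between the diets was 0 in each of the 15 alternatives run, with 0 to 4 at an unadjusted p under 0.05 and a smallest limma adjusted p between 0.560 and 1.00. The miR-486 estimate kept its sign in all 15, and its smallest size was 0.02 with upper quartile factors. Leaving out 1 sample gave estimates from −0.094 to 0.60 for miR-15a, from −0.36 to 0.55 for the log2 ratio and from 0.77 to 2.63 percentage points for the summed share. The Pearson correlation of the pair kept its sign in 14 of 15 alternatives, most of which left out samples on the same scale. Against the geometric mean of the other microRNAs r was 0.26 and rho 0.36. With upper quartile factors r was −0.36 and rho −0.14. As deviations from a line on log2 read total r shrank from −0.46 to −0.12, and rho turned from −0.38 to 0.095. With 1 sample left out, r with read total ran from 0.62 to 0.88 for miR-15a and from −0.87 to −0.68 for the log2 ratio. For miR-486 it was −0.54, and −0.15 with upper quartile factors. Alternatives to the 3 correlations with read total, and samples left out of the relations with other microRNAs, were added after the data were seen. No paired analysis was possible because the diets share no sample numbers. With read total as a covariate the diet estimate of miR-15a moved from 0.26 to 0.44. Counting error was small, since the scarcer miR-15a had 1128 implied reads or more in each sample. For the pair, the 4 samples a diet leave intervals up to 2.50-fold, and for miR-424 the interval reached 3.98-fold.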

Other observations

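At the far end of the likeness orders, the microRNAs least like the pair were other ones for each. They were picked after their values were seen, so the numbers describe these 8 samples and carry no test. Let-7f had the lowest rho with miR-486, at −0.93, and was highest in sample 7 (146787 RPM) and next in sample 2 (117741 RPM), the 2 samples lowest for miR-486. As both are large shares of one total, part of such opposition is built into the scale. With miR-15a the lowest rho, −0.98, was shared by miR-130a, miR-145, miR-24 and miR-222, where miR-145 is best known from smooth muscle and miR-222 from endothelium and platelets. In all, 41 of 104 microRNAs had a rho at or below −0.7 with miR-15a and 9 at or above 0.7, against 2 and 9 with miR-486.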
